A study of Mus musculus with 16 samples.

Results

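The annulus and tendon-lineage genes Scx, Mkx, Tnmd, Thbs4, Thbs2, Fbn1, Eln, Tnc, Postn and Kera were followed in intervertebral disc tissue of aged mice. The 10 genes were taken by symbol from the annotation of the array, and 9 of them had a named probe set among 19505 named genes. Fbn1 was unnamed there and was not measured here. All 9 measured genes were among the 16665 genes tested.

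The mutant genotype was Sirt6 cKO, in which both floxed Sirt6 alleles were combined with a tamoxifen-inducible Cre in the aggrecan locus (AcanCreERT2), and its control was the Sirt6 fl/fl littermate without Cre. Mice of both genotypes were given tamoxifen as young adults, and all arrays came from mice aged 24 months. The annulus fibrosus (AF) and the nucleus pulposus (NP) were dissected from lumbar and caudal discs, and the discs of 1 animal were pooled into a sample. The 4 groups, cKO AF, fl/fl AF, cKO NP and fl/fl NP, had 4 arrays each, which gave 16 arrays, with 4 mice of each genotype for a tissue. Whether AF and NP came from the same mice was not stated, so tissue differences were fitted as unpaired. The Cre acts in aggrecan-expressing cells of the NP, the AF and the cartilage endplate, so cells without aggrecan keep Sirt6.

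The annulus is a lamellated fibrocartilage whose outer lamellae resemble tendon. Scleraxis (Scx) and Mohawk (Mkx) are transcription factors of tendon and outer annulus cells. They promote fibrillar collagen and tenomodulin (Tnmd), a membrane glycoprotein of mature tendon cells. Elastin (Eln) and fibrillin 1 (Fbn1) build elastic fibres between the lamellae. Tenascin C (Tnc), periostin (Postn) and thrombospondins 2 and 4 (Thbs2, Thbs4) are matricellular proteins, which modulate cells and matrix more than they bear load, and keratocan (Kera) is a small leucine-rich proteoglycan that binds collagen fibrils. In RNA from whole tissue, fewer cells of a type and less RNA per cell cannot be told apart.

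Promoter windows were available from RefSeq (build GRCm38.p6, 250 bases before to 50 after each start) for Tnmd, Thbs4, Thbs2, Fbn1, Tnc, Postn and Kera. The windows of Tnc, Thbs4 and Tnmd are shown because these genes had the lowest unadjusted p of the 9 between AF and NP, Tnc on the higher side and the others on the lower side. Capitals mark the E-box letters CANNTG, which bind basic helix-loop-helix factors such as scleraxis, and the TATA-box letters TATAAA.
Tnc (chr4:64046966-64047265, minus strand): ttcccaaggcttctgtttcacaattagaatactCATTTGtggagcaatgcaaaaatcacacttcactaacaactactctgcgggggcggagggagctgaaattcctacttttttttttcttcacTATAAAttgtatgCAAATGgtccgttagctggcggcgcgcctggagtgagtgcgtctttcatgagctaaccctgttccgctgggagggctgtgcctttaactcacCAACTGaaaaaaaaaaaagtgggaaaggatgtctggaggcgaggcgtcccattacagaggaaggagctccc
Thbs4 (chr13:92794769-92795068, minus strand): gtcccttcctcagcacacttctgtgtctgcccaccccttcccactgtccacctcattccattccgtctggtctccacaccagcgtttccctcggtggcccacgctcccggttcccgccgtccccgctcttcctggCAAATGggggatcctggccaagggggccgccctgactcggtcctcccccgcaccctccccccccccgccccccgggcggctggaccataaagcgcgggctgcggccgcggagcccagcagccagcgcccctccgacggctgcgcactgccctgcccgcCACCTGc
Tnmd (chrX:133850758-133851057, plus strand): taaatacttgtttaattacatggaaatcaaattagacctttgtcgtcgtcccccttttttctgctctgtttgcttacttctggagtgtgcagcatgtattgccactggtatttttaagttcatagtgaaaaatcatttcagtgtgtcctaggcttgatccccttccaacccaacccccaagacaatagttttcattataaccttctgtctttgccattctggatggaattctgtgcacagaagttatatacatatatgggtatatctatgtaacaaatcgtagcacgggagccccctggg
The Tnc window held 3 E-boxes, the Thbs4 window 2 and the Tnmd window 0, searched on both strands. An E-box was in 72.3% of 32851 mouse promoter windows of this length. The Tnc window also held TATAAA, at position -126 counted from the start. These letters were in 13.6% of the windows. Of the windows not shown, that of the second Tnc start, which overlaps the one shown, held 2 E-boxes and TATAAA at position -205. That of Thbs2 held 2 E-boxes and, on the opposite strand, TATAAA at position -126. Fbn1 held 1 E-box, and Kera and both Postn starts held 0. The second Postn start carried TATAAA at position -26, counted from the start.

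Signals were log2 values minus the median of the array, called centred log2 signal, so that 0 is the median probe set of an array. Array medians lay between 4.93 and 5.0 in AF and between 4.41 and 4.49 in NP before centring, so AF minus NP differences depend on the scaling. The medians of the background controls also differed, from 4.65 to 4.83 in AF and from 4.28 to 4.33 in NP. Whether both tissues were summarised together is not stated. Any difference in their processing would coincide with tissue and was not tested. Without centring, the median of all tested genes was 0.52 higher in AF. A probe set was taken as over background when it lay at least 2-fold above the median background control of its array. Centred arrays correlated at r of 0.369 to 0.717 within AF and 0.605 to 0.822 within NP across the tested genes, which are not independent replicates. Some cKO arrays stood apart. The mean of 16 skeletal muscle markers reached 1.96 on cKO AF replicate 4, 1.53 on cKO NP replicate 1 and 1.42 on cKO NP replicate 3, and at most 0.26 on any fl/fl array. The mean of 16 cartilage markers was 3.74 on that AF array, against 1.05 to 1.22 on fl/fl AF arrays. On cKO AF replicate 1 both means were low (-0.02 and 0.67), but its median correlation with the other AF arrays was 0.449, against 0.568 to 0.673 for the others. The 4 arrays cKO AF replicates 1 and 4 and cKO NP replicates 1 and 3 were therefore left out in 1 setting. Sirt6 itself was over background on 0 of 16 arrays. Its cKO minus fl/fl difference was -0.51 in AF (two-sided exact permutation p = 0.2) and -0.01 in NP (p = 0.971, same exact test), where the smallest p that 4 against 4 arrays allow is 0.0286. The sources used here do not say whether its probes lie in the deleted part, so this gene did not check the labels.

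Most of the 9 genes gave little signal in either tissue. Of 72 values in AF, 18 were over background (25.0%), against 14 of 72 in NP (19.4%), where the shares over all named genes were 21.0% in AF and 16.5% in NP. Mkx was the gene most often above background, on 7 of 8 AF arrays and 7 of 8 NP arrays. Tnmd followed with 3 AF arrays and 6 NP arrays. Tnc was over background on 3 AF arrays and 0 NP arrays, Thbs2 on 2 and 0, Postn on 2 and 1, and Eln on 1 and 0, in the same order of tissues. Scx, Thbs4 and Kera were over background on 0 arrays of either tissue. Where a gene was over background on no array of a group its level there is only a bound, so log2 differences of such signals are given without a fold.

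**Figure D1:**
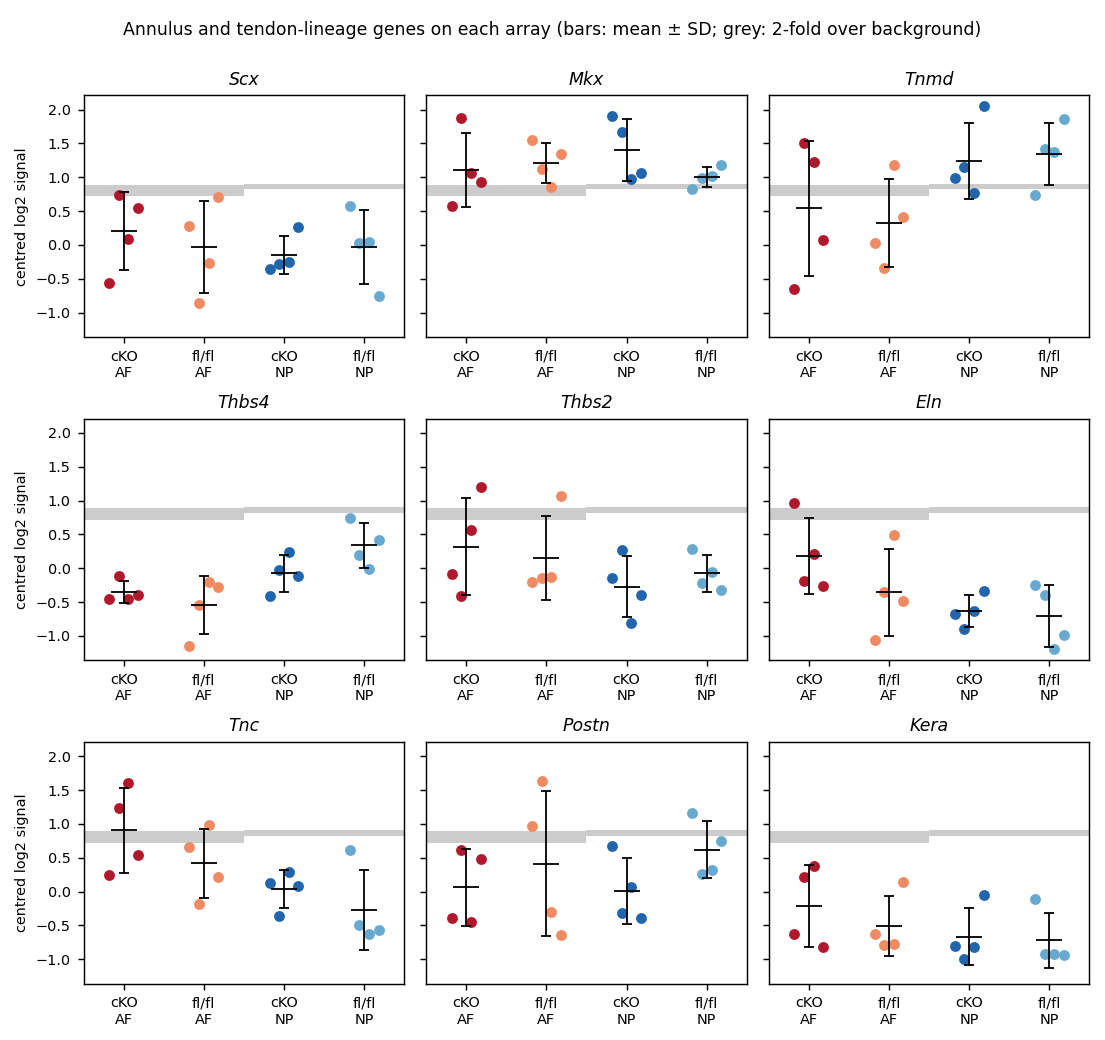
Centred log2 signal of 9 annulus and tendon-lineage genes on each of 16 arrays, by tissue and genotype. Points are arrays, black bars are means ± SD (n = 4), and the grey band spans the 2-fold-over-background limits of the arrays of a tissue. Mkx lies above the limit of its own array on 7 of 8 arrays in each tissue (above the whole band on 6 in AF and 7 in NP), and Scx, Thbs4 and Kera lie below their array's limit on all 16.

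The first comparison asked whether these genes mark the annulus in aged discs, that is, whether AF differed from NP over both genotypes. None of the 9 was called at an adjusted p below 0.05 (limma, Benjamini-Hochberg over all tested genes), while 10.8% of all genes were. At an unadjusted p below 0.05 there were 4 of 9, against 26.6% of all genes, with Tnc and Eln higher in AF and Tnmd and Thbs4 lower in AF. The median difference of the 9 was 0.17 on the log2 scale, against 0.0035 over all genes, and 5 of 9 were positive, against 50.3% of all genes. The set therefore did not move in a single direction. Of all genes, 899 were called higher in AF and 898 lower, but the scaling moved this split to 6122 higher and 202 lower (37.9% of all genes) in the deposited values without centring, and to 1156 higher and 669 lower when arrays were centred on their background controls. Without centring 5 of 9 were called higher in AF, Tnc (1.29), Eln (1.10), Thbs2 (0.92), Kera (0.85) and Scx (0.69), at adjusted p from 0.0012 to 0.0498 (limma).

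Among the transcription factors, Mkx was over background in both tissues and did not differ between them beyond its spread. Its centred log2 signal was 0.58, 1.88, 1.06 and 0.93 on cKO AF arrays and 1.55, 1.12, 0.85 and 1.34 on fl/fl AF arrays. It was 1.91, 1.67, 0.97 and 1.06 on cKO NP arrays and 0.82, 0.99, 1.02 and 1.18 on fl/fl NP arrays. High and low arrays were found in both tissues. The AF minus NP difference was -0.04 (95% interval -0.50 to 0.42), and its sign depends on the scaling, with 0.47 in the deposited values without centring (adjusted p = 0.098, limma). Scx ranged from -0.86 to 0.74 in AF and from -0.75 to 0.58 in NP, below the background limit throughout, and differed by 0.17 (-0.38 to 0.73).

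Tnmd, the tendon membrane protein, had its higher signals in NP. On cKO AF arrays it was -0.64, 1.51, 1.22 and 0.08, against 0.99, 1.15, 0.76 and 2.05 on cKO NP arrays. On fl/fl AF arrays it was 0.02, -0.34, 1.18 and 0.42, against 0.73, 1.41, 1.37 and 1.86 on fl/fl NP arrays. AF held both the lowest arrays and arrays as high as NP, so the tissues overlapped in both genotypes. The AF minus NP difference was -0.86 ± 0.32 (SE; adjusted p = 0.0884, limma), with -0.70 in cKO and -1.03 in fl/fl. Without cKO AF replicate 2 the difference was -1.02 and passed the threshold (adjusted p = 0.0482, limma), over a range of adjusted p from 0.0482 to 0.406 across all settings. The size fell to -0.35 when the values were not centred.

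Tnc, an extracellular matrix glycoprotein of loaded and healing connective tissue, was the gene with the lowest p of the set. It was 0.24, 1.23, 1.60 and 0.55 on cKO AF arrays, against 0.12, -0.36, 0.29 and 0.09 on cKO NP arrays. On fl/fl AF arrays it was 0.66, -0.19, 0.98 and 0.21, against 0.61, -0.50, -0.63 and -0.57 on fl/fl NP arrays. The AF arrays over background were cKO replicates 2 and 3 and fl/fl replicate 3, and 4 of 8 NP arrays (fl/fl replicate 1 highest, then cKO replicates 3, 1 and 4) lay within the range of the AF values. The difference was 0.78 ± 0.26 (SE; 95% interval 0.24 to 1.32; adjusted p = 0.0592, limma). It was past the threshold without cKO AF replicate 1 (0.89, adjusted p = 0.0317, limma), without fl/fl AF replicate 2 (0.88, adjusted p = 0.0432, limma) or without fl/fl NP replicate 1 (0.92, adjusted p = 0.0311, limma). With arrays centred on their background controls it was 0.85 (adjusted p = 0.0369, limma). Over all settings the difference ranged from 0.66 to 1.29 and the adjusted p from 0.0012 to 0.114.

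Thbs4, a pentameric thrombospondin of tendon and muscle, lay lower in AF, though under the background limit on all arrays. It was -1.15, -0.54, -0.21 and -0.27 on fl/fl AF arrays, against 0.75, 0.19, -0.01 and 0.42 on fl/fl NP arrays. These 2 groups did not overlap, which was so for 10.6% of all genes in fl/fl. On cKO AF arrays it was -0.46, -0.12, -0.45 and -0.39, against -0.41, -0.02, 0.24 and -0.11 on cKO NP arrays, and those groups overlapped. The difference over both genotypes was -0.58 ± 0.20 (SE; adjusted p = 0.0665, limma), -0.88 in fl/fl and -0.28 in cKO. Its size was -0.06 in the deposited values without centring, and in cKO the sign turned, to 0.25.

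Eln, the core of the elastic fibre, had its higher signals in AF. On cKO AF arrays it was 0.96, -0.19, 0.21 and -0.26, against -0.67, -0.90, -0.63 and -0.33 on cKO NP arrays. The cKO groups did not overlap, which held for 12% of all genes in cKO. On fl/fl AF arrays Eln was -1.06, -0.36, 0.49 and -0.49, against -0.25, -0.40, -1.20 and -0.99 on fl/fl NP arrays, and the fl/fl groups overlapped. The difference was 0.81 ± 0.36 in cKO (SE; adjusted p = 0.226, limma) and 0.35 ± 0.36 in fl/fl (adjusted p = 0.67). The 2 differences were themselves apart by 0.46 (-0.59 to 1.51), a test of the genotype effect between tissues with an adjusted p of 0.987.

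The other 3 genes had wide intervals around smaller differences. Thbs2, an inhibitor of angiogenesis that also shapes collagen fibrils, differed by 0.41 (-0.15 to 0.96) over both genotypes, with 1 array over background in each AF group. Kera differed by 0.34 (-0.18 to 0.85) and ranged from -0.83 to 0.38 in AF and from -0.998 to -0.05 in NP. Postn, a collagen-binding protein of periodontal ligament and periosteum, differed by -0.08 (-0.73 to 0.58) and had the widest spread of the set in AF, from -0.64 to 1.63. The tissue differences in single genotypes called 0 of 9 genes, where 1.43% of all genes were called in cKO and 0.702% in fl/fl. At an unadjusted p below 0.05 those were Tnc and Eln in cKO (18.5% of all genes) and Tnmd and Thbs4 in fl/fl (16.5% of all genes).

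**Figure D2:**
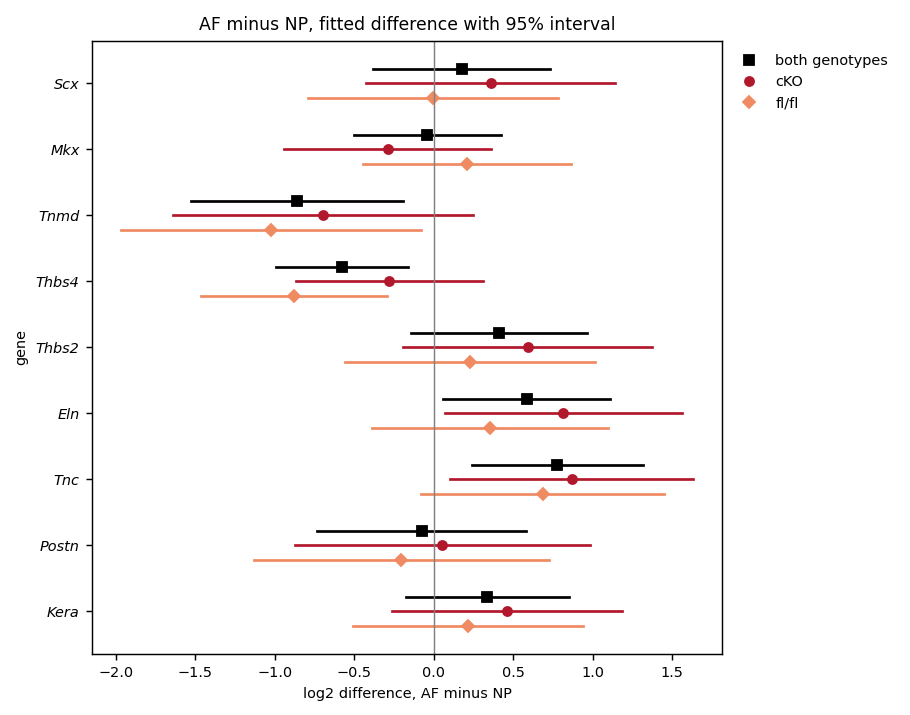
Fitted AF minus NP difference of each gene (log2) with its 95% interval, over both genotypes (squares), in cKO (circles) and in fl/fl (diamonds). The intervals over both genotypes lie above 0 for Eln and Tnc and below 0 for Tnmd and Thbs4, and none of the 9 passed an adjusted p of 0.05.

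Other genes of the annulus were read beside the set to see whether the dissected tissues differed in fibrous matrix at all. In the list of fibrous matrix genes, 1 of 22 tested genes was higher in AF and 1 lower (background 5.39% in each direction), and the list median was 0.10. Col3a1, the fibrillar collagen that accompanies collagen I in fibrous tissue, was higher in AF. Its centred log2 signal ran from 0.92 to 1.66 in AF (median 1.17) and from -0.48 to 0.13 in NP (median -0.18). It was over background on 8 of 8 AF arrays and 0 of 8 NP arrays, and the 2 tissues did not overlap, which held for 1.91% of all genes. The difference was 1.39 (adjusted p = 0.00031, limma), and AF was at least 1.26-fold higher. This bound sets the AF mean against the background limit of the NP arrays and was not itself tested. Dcn, the collagen-binding proteoglycan decorin, ran from -1.23 to 5.94 in AF (median 1.70) and from -0.47 to 0.53 in NP (median -0.02). The AF mean was at least 2.19-fold higher, but the AF arrays were so spread, with cKO replicate 4 highest and fl/fl replicate 1 lowest, that the test missed the threshold (adjusted p = 0.0628, limma). Without fl/fl AF replicate 1 it passed (a difference of 2.44, adjusted p = 0.0163). Without the cKO arrays that stood apart the Dcn difference fell from 1.97 to 1.57 (adjusted p = 0.147, limma). Over all settings it ranged from 1.37 to 2.48 and its adjusted p from 0.00783 to 0.18. Omd, the bone proteoglycan osteomodulin, was lower in AF by -0.81 (adjusted p = 0.0297), on arrays where it was not over background in either tissue.

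Of the 16 tested genes of elastic fibre assembly, 1 was higher in AF and 1 lower. Efemp1, which encodes fibulin 3, was over background on 6 of 8 AF arrays and 0 of 8 NP arrays and higher in AF (0.82, adjusted p = 0.0349, limma). That call was lost in 10 of 29 alternative settings. Loxl4, a lysyl oxidase that crosslinks collagen and elastin, was lower in AF (-0.84, adjusted p = 0.0446), with 5 AF arrays and 8 NP arrays over background. Emilin1 (-0.64) and Ltbp3 (0.62) had adjusted p of 0.0685 and 0.0705. The list median was -0.09.

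Both called genes among 14 tested tendon and annulus regulators were lower in AF. Tgfb1, the growth factor that induces scleraxis, differed by -1.24 (adjusted p = 0.00334, limma), over background on 0 AF arrays and 2 NP arrays. Six2, a homeobox factor of tendon and kidney progenitors, ranged from -0.33 to 0.71 in AF and from 0.86 to 1.95 in NP, without overlap. The difference was -1.01 (adjusted p = 0.00571, limma), and the same kind of bound put AF at least 1.39-fold lower. The call was lost without the cKO arrays that stood apart (-0.84, adjusted p = 0.0874) and in the deposited values without centring (-0.49, adjusted p = 0.0663). Egr2 (0.62) and Tgfb2 (0.84) were higher in AF at adjusted p of 0.13 and 0.146.

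Among 15 tested matricellular relatives, 2 were lower in AF and 0 higher. Ccn1, a matricellular protein induced by YAP, ranged from -0.70 to 1.15 in AF (median -0.34) and from 1.51 to 3.59 in NP (median 2.19), with no overlap and a difference of -2.46 (adjusted p = 0.000272, limma). It was over background on 1 AF array and 8 NP arrays. Itga9, an integrin subunit that binds tenascin C, was lower in AF by -0.99 (adjusted p = 0.0478, limma). It was over background on 0 AF arrays and 1 NP array. Ccn3 (-0.76) and Tnn (-0.46) had adjusted p of 0.184 and 0.273.

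**Figure D3:**
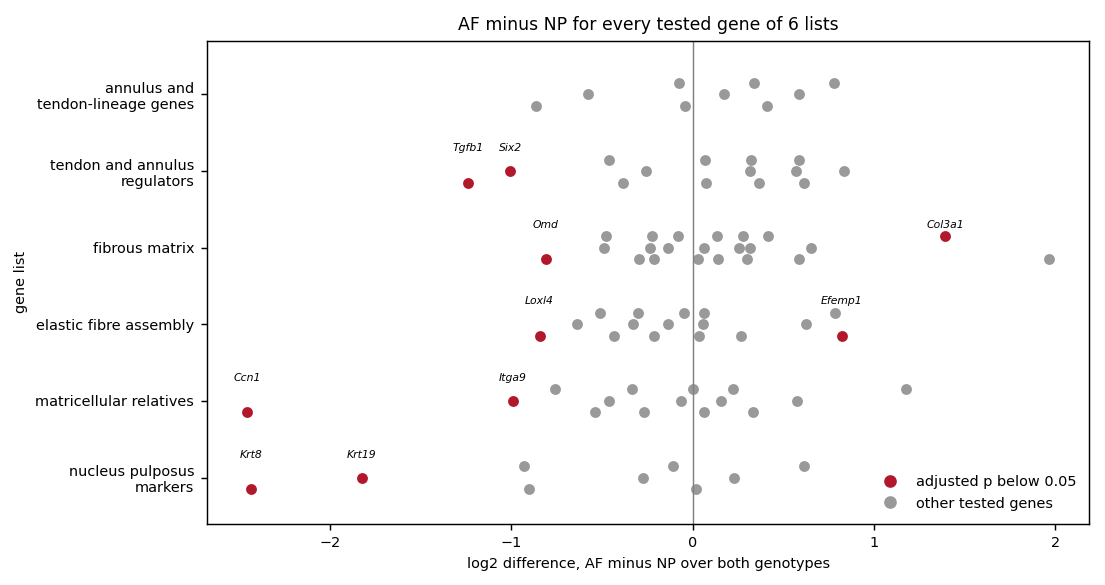
AF minus NP difference over both genotypes (log2) of every tested gene in 6 lists, 1 point a gene, with genes of adjusted p below 0.05 in red and named. The top row, the annulus and tendon-lineage genes, has no red point. The called genes Col3a1 and Efemp1 lie to the right of 0. All other called genes lie to the left, namely Tgfb1, Six2, Omd, Loxl4, Ccn1, Itga9, Krt8 and Krt19.

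The tissue labels were checked against markers. Of 9 tested nucleus pulposus markers, 2 were lower in AF and 0 higher. Krt8, a keratin of notochord-derived NP cells, ranged from -0.16 to 3.11 in AF and from 2.50 to 6.15 in NP, a difference of -2.44 (adjusted p = 0.00605, limma). Krt19 differed by -1.83 (adjusted p = 0.00471). Krt8 was nonetheless over background on 7 of 8 AF arrays. Of 14 tested cartilage markers 4 were higher in AF and 0 lower, namely Col9a1, Col9a2, Col9a3 and Ucma, with differences from 0.63 to 1.28. None of these 4 passed without the cKO arrays that stood apart (adjusted p from 0.122 to 0.294, limma). In skeletal muscle, Ttn was higher in AF (0.86) and Myh2 lower (-1.35), of 16 tested. Bglap was higher among 5 bone cell genes (1.15), Adipoq among 4 adipocyte genes (0.75), Adgre1 higher (0.64) and Csf1r lower (-0.95) among 9 macrophage and leukocyte genes, and Pmp22 lower among 3 Schwann cell genes (-2.25). Adipoq was over background on 0 arrays of either tissue, and Bglap on 1 AF array and 0 NP arrays. Adgre1 was over it on 8 AF and 2 NP arrays, Csf1r on 0 and 5, and Pmp22 on 1 and 5. None of 4 osteoclast, 8 epidermis, 2 erythroid, 6 endothelium and 7 smooth muscle and pericyte genes was called. Of the 21 list genes called here, none turned sign in any setting, and Col3a1, Ccn1, Tgfb1, Krt8, Myh2 and Pmp22 stayed past the threshold in every setting that gave a value. Without the 4 cKO arrays that stood apart, 12 of the 21 lost their call: Krt19, Six2, Loxl4, Omd, the 4 cartilage genes, Csf1r, Adgre1, Bglap and Adipoq. Over all settings the call was lost most often for Col9a3 (19 settings), Itga9 (18), Loxl4 (17), Col9a1 (16), Adgre1 (15), Ttn (12) and Ucma (12). The part of these cell types in the differences of the annulus genes was not tested.

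The second comparison was that of the study, loss of Sirt6 within each tissue. No gene passed an adjusted p of 0.05 in AF or NP (0 of 16665 each by limma and by SAM, the method of the study, with 4.04% in AF and 4.87% in NP at an unadjusted p below 0.05 by limma). The study itself called genes by unadjusted p together with a minimum fold change, and 0 of 9 annulus genes met both criteria in either tissue. They were met by 3.52% of all genes in AF and 2.32% in NP. No gene of the set had cKO and fl/fl groups that did not overlap (0 of 9 in each tissue, against 2.57% of all genes in AF and 2.84% in NP). Of the 9 differences, 7 were positive in AF (50% of all genes) and 4 in NP (49.8% of all genes).

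In NP the lowest p belonged to Postn. It was 0.68, -0.33, 0.07 and -0.39 on cKO NP arrays, against 1.16, 0.25, 0.32 and 0.75 on fl/fl NP arrays. Only cKO replicate 1 reached the fl/fl values. The difference was -0.61 ± 0.31 (SE; 95% interval -1.29 to 0.07; adjusted p = 0.941, limma). It was -0.83 without cKO NP replicate 1, and -0.98 without cKO NP replicates 1 and 3, both among the arrays that stood apart. In both fits Postn met the criteria of the study. Its adjusted p lay between 0.841 and 1.0 in all settings. In AF, Postn was -0.40, 0.62, -0.46 and 0.48 in cKO, against 0.97, 1.63, -0.30 and -0.64 in fl/fl, with a difference of -0.35 (-1.45 to 0.75).

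In AF, Eln and Tnc had the lowest p. With the values given above, Eln averaged 0.18 ± 0.56 in cKO AF and -0.35 ± 0.64 in fl/fl AF (SD, n = 4 each), a difference of 0.53 (-0.36 to 1.43). Tnc averaged 0.90 ± 0.62 in cKO AF and 0.42 ± 0.51 in fl/fl AF, a difference of 0.49 (-0.38 to 1.35). Both overlapped between genotypes, and both adjusted p were 0.98 (limma). Without cKO AF replicates 1 and 4 the Tnc difference was 0.998 and that of Tnmd 1.04, on 2 cKO arrays, and Tnc was then the 1 gene of the set that met the criteria of the study. Without replicate 4 alone, the array with muscle and cartilage markers, they were 0.61 and 0.37 and no gene of the set met them.

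The remaining genotype differences were smaller than their intervals. In NP, Mkx was higher than every fl/fl array on cKO replicates 1 and 2 alone, a difference of 0.40 (-0.20 to 0.99), while in AF its difference was -0.10 (-0.88 to 0.67). Thbs4 differed by -0.41 (-0.98 to 0.16) in NP and 0.19 (-0.52 to 0.90) in AF. Tnmd differed by -0.11 (-0.84 to 0.63) in NP and 0.22 (-0.87 to 1.31) in AF. Scx differed by 0.24 (-0.68 to 1.15) in AF and by -0.13 (-0.79 to 0.54) in NP. Thbs2 and Kera stayed within -0.20 and 0.30 in both tissues. The genotype effect was not shown to differ between AF and NP for any of the 9 (0 of 16665 genes called; 4.21% at an unadjusted p below 0.05 by limma, and 0 of 9 annulus genes). The largest of these differences between tissues was that of Thbs4, 0.60 (-0.23 to 1.43).

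**Figure D4:**
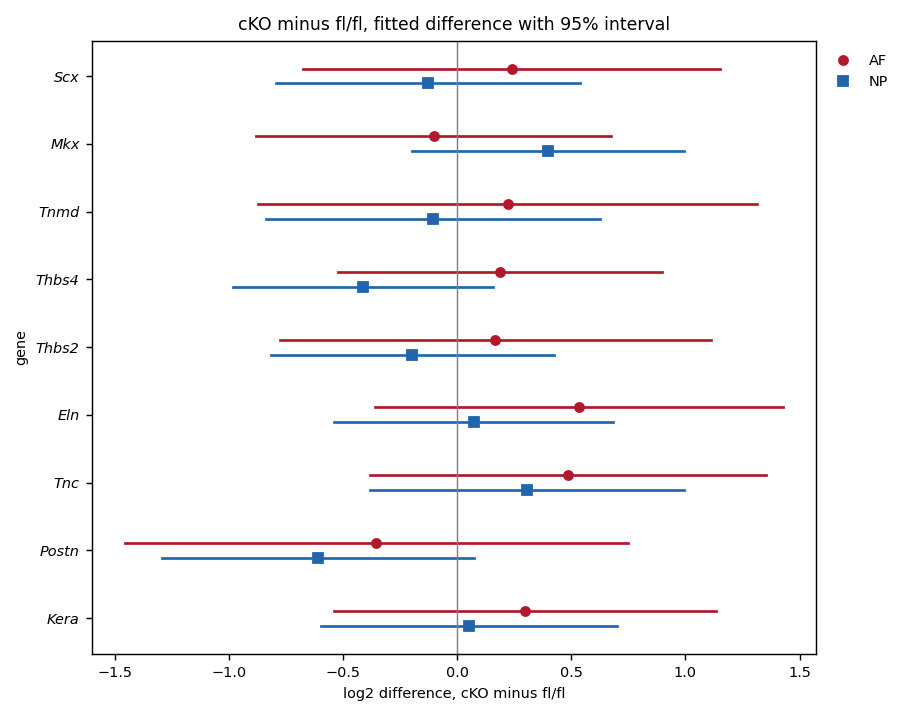
Fitted cKO minus fl/fl difference of each gene (log2) with its 95% interval, in AF (circles) and NP (squares). Every interval includes 0, and the interval of Postn in NP, from -1.29 to 0.07, reaches least beyond it.

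The genes of the 4 wider lists gave no call between genotypes either. At an unadjusted p below 0.05, Itgb3 (1.16) and Tgfbi (0.82) were the 2 of 15 matricellular relatives in AF and Sparc (-2.15) the 1 in NP. Mfap4 (1.01) was the 1 of 16 elastic fibre genes in NP, and Prg4 (-0.69) the 1 of 22 fibrous matrix genes in NP. Their adjusted p were 0.98 in AF and 0.941 in NP (limma). Fgf18 (0.67) and Tgfb3 (-0.83) in AF and Gdf7 (-0.51) in NP led the regulators, none at an unadjusted p below 0.05. Skeletal muscle markers had a median difference of 0.54 in NP and 0.43 in AF, with 15 and 12 of 16 positive, and their part in the genotype values of the annulus genes was not tested.

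On some arrays several of the genes were the highest or the lowest of their group of 4. On fl/fl NP replicate 1, 7 of the 9 genes (Scx, Thbs4, Thbs2, Eln, Tnc, Postn and Kera) were the highest of the 4 fl/fl NP arrays, and Mkx and Tnmd were the lowest. The mean over the 9 genes was 0.51 on that array, against -0.01 to 0.09 on the other fl/fl NP arrays. Only 1 of the 9, Postn, was over background on it. The share of all genes that were highest or lowest on a given array was not computed, so no excess was measured. Among cKO AF arrays, replicate 2 was highest for Scx, Mkx, Tnmd, Thbs4 and Postn (mean of the 9 genes 0.61), and replicate 1 was lowest for Scx, Mkx, Tnmd, Thbs4 and Tnc (mean -0.11). On cKO AF replicate 4, where fibrous matrix genes averaged 1.29, the highest mean of that list on any array, the 9 genes averaged 0.26.

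**Figure D5:**
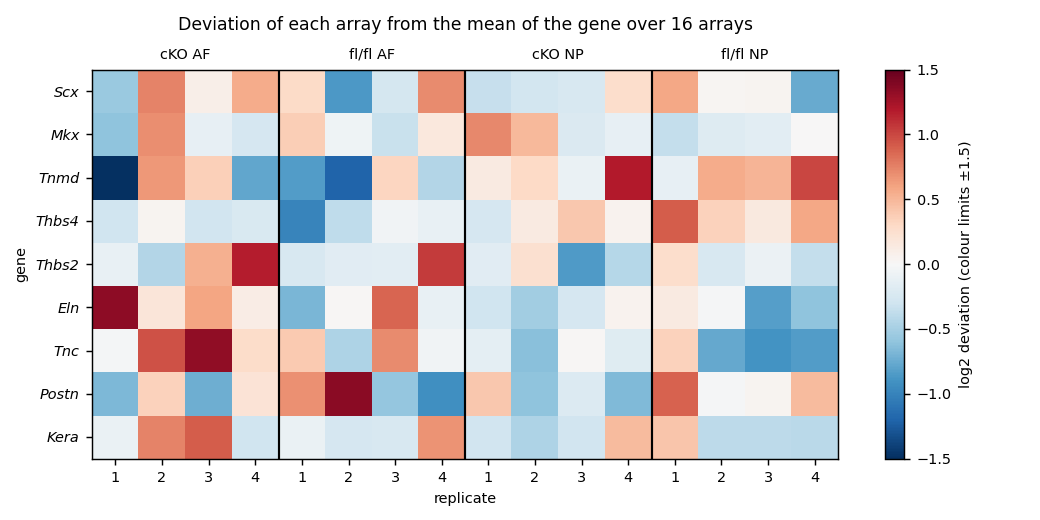
Deviation of each array from the mean of the gene over 16 arrays (log2, red above and blue below), with columns for replicates 1 to 4 of cKO AF, fl/fl AF, cKO NP and fl/fl NP. The column of fl/fl NP replicate 1 is red for 7 of 9 genes.

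Within a tissue, the genes were not shown to vary together. With 8 arrays and most signals under background, shared variation could have been missed. Deviations from the genotype mean were compared for all 36 pairs over 8 arrays, which were 8 mice. The permutations took every order of the 8 deviations across both genotypes, which treats them as exchangeable. In AF 19 pairs were positive (median r 0.09), and in NP 21 (median r 0.12). The closest pair was Tnmd and Tnc in AF (r = 0.88, exact permutation p = 0.00821, adjusted p = 0.296; rho = 0.88, exact p = 0.00724, adjusted p = 0.261). Without the 2 arrays farthest from the Tnmd median r was 0.87. In NP the closest was Scx with Kera (r = 0.77, exact permutation p = 0.016, adjusted p = 0.398; rho = 0.62, exact p = 0.115, adjusted p = 0.641; r = 0.86 without the 2 farthest arrays). None of the 36 pairs passed an adjusted p of 0.05 in AF or in NP by exact permutation, and 2 and 4 pairs had an unadjusted p below 0.05 there. Only Mkx was over background on at least 4 AF arrays. Among 3536 other genes that were, those most like it over the 8 AF arrays were Sh3rf2 (r = 0.99), Dlx1 (r = 0.96), Ttc23l (r = 0.96), Siglech (r = 0.96) and Zmynd8 (r = 0.95), given as a description of deviations from the genotype mean. These r were picked as the highest of 3536, each over 8 arrays, and were not tested.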

How the data were processed

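The authors labelled total RNA with the GeneChip WT Plus kit, hybridised it to Mouse Clariom S arrays and summarised them by SST-RMA in Expression Console. Transcriptome Analysis Console is also named in the submitters' processing notes. Per probe set (28846 in all) a log2 signal was deposited, and no genome build is given in the sources used here. Each array was centred on its median. Named probe sets above the 40th percentile of their array on at least 4 of 16 arrays were kept, and the brightest probe set stood for a gene. AF and NP were compared in 1 limma 3.58.1 fit (R 4.3.3) over 4 group means, and genotypes in a fit for each tissue, with no covariates and Benjamini-Hochberg adjustment over 16665 genes. The fits were tested on simulated data. Sirt6 and gene pairs were tested by exact permutation (scipy 1.17.1), and figures drawn with matplotlib 3.10.9. Depth does not apply to arrays, so precision rests on 4 arrays a group. Scan batches were not analysed here. Gene lists came from textbook knowledge: tendon and annulus regulators, fibrous matrix, elastic fibre assembly, matricellular relatives and 12 cell types. The members and lists were chosen with earlier results of these data known. Named were all members, and from each list up to 4 genes by lowest p between tissues and 2 by lowest p in each genotype comparison. The 5 genes most like Mkx in AF were also named. The comparison of all 36 pairs, and the genes and arrays singled out by their values, were chosen after seeing the data.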

Additional observations from a re-analysis of the deposited data

Results flagged for a closer look

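In 4 of 36 groups of 4 arrays (9 genes in 4 groups) an array lay far from the other 3, measured as its gap to the nearest divided by the whole range. Normally distributed values would give about 1 in 20 such groups. The share over all genes on these arrays was not computed, so no excess was measured. Thbs2 in fl/fl AF was 1.07 on replicate 4 and -0.20 to -0.13 on the other arrays, a ratio of 0.94. Kera in fl/fl AF was 0.15 on the same array and -0.79 to -0.63 on the others (0.834). Kera in fl/fl NP was -0.11 on replicate 1 and -0.93 to -0.92 on the others (0.983). Tnc in fl/fl NP was 0.61 on that same replicate 1 and -0.63 to -0.50 on the others (0.897). Without it the AF minus NP difference of Tnc was 0.92 (adjusted p = 0.0311, limma). Of these arrays' values, that of Thbs2 alone was over background.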

How the results depend on the processing

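Most values kept their side of the threshold under the alternatives, and the cause of each change below was not tested. The main counts of called genes were 1797 over both genotypes, 239 in cKO and 117 in fl/fl. Without centring they were 6324, 3025 and 2330, with 5, 3 and 1 annulus genes called (Eln, Thbs2 and Tnc in cKO, Tnc in fl/fl). That setting turned the sign of Mkx (0.47), Postn (0.44), Mkx in cKO (0.24), Thbs4 in cKO (0.25), Postn in fl/fl (0.30) and Scx in fl/fl (0.49). Centring on background controls gave 1825, 256 and 149 genes with 1 annulus gene (Tnc), and turned Mkx (0.031) and Scx in fl/fl (0.034). The filter for probe sets over background left Mkx and Tnmd of the 9 genes and 958 calls. Quantile normalization gave 211 calls in fl/fl and turned Scx there (0.013), and trended robust moderation gave 74 in fl/fl. Array weights gave 372 calls in cKO and 1 annulus gene over both genotypes (Tnc, 0.83), and turned Mkx (0.0066) and its genotype difference in AF (0.023). Without the cKO arrays that stood apart (NP replicates 1 and 3, AF replicates 1 and 4) 530 genes were called over both genotypes, 0 in cKO and 1 between genotypes in NP, and 1 annulus gene met the criteria of the study in AF (Tnc) and 1 in NP (Postn). This turned Mkx (0.16), Postn (0.12), Mkx in cKO (0.10), the AF genotype differences of Mkx (0.25) and Thbs2 (-0.077), the NP genotype differences of Scx (0.021), Thbs2 (0.011) and Tnmd (0.26), and the difference of Thbs2 between tissues (-0.088). Keeping cKO AF replicate 1 and leaving out the 3 arrays high in muscle markers, a setting chosen after seeing the data, gave 492, 0 and 56 calls and turned Mkx (0.0084), Postn (0.037) and the difference of Thbs2 between tissues (-0.14).

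Leaving out 1 array in turn gave 1197 to 1886 calls over both genotypes (lowest without cKO NP replicate 1), 52 to 280 in cKO (lowest without cKO NP replicate 1) and 17 to 290 in fl/fl (lowest without fl/fl NP replicate 4, highest without cKO AF replicate 1), with 0 to 1 annulus genes called over both genotypes and 0 to 1 past the criteria of the study in NP (Postn). AF minus NP ranges that crossed 0 were -0.17 to 0.048 for Mkx and -0.28 to 0.10 for Postn over both genotypes, -0.13 to 0.28 for Postn in cKO, and in fl/fl -0.0047 to 0.42 for Kera, -0.61 to 0.15 for Postn, -0.25 to 0.27 for Scx and -0.080 to 0.35 for Thbs2. Genotype ranges that crossed 0 in AF were -0.36 to 0.073 for Mkx, -0.70 to 0.053 for Postn, -0.038 to 0.49 for Scx, -0.13 to 0.47 for Thbs2, -0.015 to 0.30 for Thbs4 and -0.10 to 0.62 for Tnmd. In NP they were -0.092 to 0.23 for Eln, -0.15 to 0.26 for Kera, -0.37 to 0.076 for Scx and -0.38 to 0.068 for Tnmd, and between tissues -0.095 to 0.66 for Postn and -0.11 to 0.40 for Tnc.

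Samples of the same replicate number did not deviate together (r from -0.142 to 0.062, with 2 of 8 arrays closest to their own number). With most genes under background, this does not show whether equal numbers mark the same mouse. The replicate block gave 1184, 2 and 0 calls over both genotypes, in cKO and in fl/fl, and changed no call of an annulus gene. Of the alternative values, 1079 with 1 array left out and 1015 others kept their sign and call or, for counts, stayed close to the main count. In the same order, the sign turned in 45 and 23 and a call was lost in 100 and 51. A call was gained in 6 and 13, and a count moved further in 18 and 23. Most of the 9 genes lay near the background signal, which limits their log2 differences.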
